A study of Mus musculus with 6 samples.

Results

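The genes described here encode 6 Toll-like receptors (Tlr1 to Tlr6), the co-receptors CD14 (Cd14) and MD-2 (Ly96) and the adaptors MyD88 (Myd88) and TRIF (Ticam1). They were chosen by name, as every probe set that the platform annotation gave to 1 of these symbols alone, which yielded 14 probe sets for 10 genes among the 18193 genes read on the arrays. RNA was hybridised to Affymetrix mouse arrays, 3 of senescent and 3 of proliferating hepatic stellate cells, the liver pericytes that turn into matrix-producing myofibroblasts after injury. All 6 samples were C57Bl/6 cells that carried both CMV-rtTA and TRE-GFP-shRNA.p53.1224, from which doxycycline induces a green fluorescent protein and a short hairpin RNA against p53. The senescent cells are labelled as control-treated, with p53 expression. The proliferating cells received doxycycline at 1 ug/ml and are labelled as having p53 knocked down. Loss of p53, exposure to doxycycline and proliferation therefore cannot be told apart. Whether the arrays of 1 group hold RNA of different mice or cultures is not in the labels, so each p-value reflects the scatter among these arrays alone, and that scatter may be technical.

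Toll-like receptors recognise molecules of microbes and of damaged tissue. TLR4, with CD14 and MD-2, recognises bacterial lipopolysaccharide; TLR2 pairs with TLR1 or TLR6 to bind lipopeptides; TLR5 binds flagellin; and TLR3 binds double-stranded RNA in endosomes. TLR3 signals through TRIF, TLR4 through both TRIF and MyD88, and the others through MyD88, and these routes lead to NF-kB, MAP kinases and interferon regulatory factors. In mouse liver, TLR4 on stellate cells is known to respond to lipopolysaccharide from the gut, with release of chemokines and loss of the TGF-beta pseudoreceptor BAMBI.

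Of the 10 genes, 1 was higher and 1 was lower in senescent cells at an adjusted p under 0.05 (moderated test of limma, Benjamini-Hochberg over all genes). Tlr3 rose 1.36-fold (95% interval 1.15 to 1.60) and Tlr4 fell 1.39-fold (senescent over proliferating ratio 0.615 to 0.841). The other 8 genes did not pass. Over all 18193 genes 20.0% passed, with 9.49% of genes higher and 10.5% lower, so that 2 of 10 is at the share of all genes. In a fit of only the 12500 genes with means above the background level given below, 4020 passed. Of the 9 genes described here that were in that fit, 1 was higher and 1 lower. The median log2 change of the 10 genes was -0.0074, against -0.0018 over all genes.

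Promoter sequences were read for 7 of the 10 genes, which were Tlr1, Tlr2, Tlr3, Tlr5, Tlr6, Myd88 and Ticam1. They numbered 9, because Tlr1 and Tlr6 each had an additional annotated start. No promoter sequence was available for Tlr4 and Ly96, and the promoter of Cd14 was not used. That of Tlr3 is shown because its RNA rose, and that of Tlr2 because its promoter, like that of Tlr3, held a match to the NF-kB consensus. Both run 5′ to 3′ on the strand of the gene, from 250 bases before the annotated start to 50 bases from it (RefSeq, GRCm38.p6), at chr8:45410331-45410630, minus strand, for Tlr3 and at chr3:83841559-83841858, minus strand, for Tlr2. Capitals mark matches to the motifs searched.
Tlr3: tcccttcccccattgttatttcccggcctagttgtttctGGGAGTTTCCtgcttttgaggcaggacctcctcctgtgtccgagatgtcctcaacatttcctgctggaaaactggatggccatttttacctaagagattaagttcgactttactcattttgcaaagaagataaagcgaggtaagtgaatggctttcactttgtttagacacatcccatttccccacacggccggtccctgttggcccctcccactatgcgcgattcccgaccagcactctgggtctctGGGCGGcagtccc
Tlr2: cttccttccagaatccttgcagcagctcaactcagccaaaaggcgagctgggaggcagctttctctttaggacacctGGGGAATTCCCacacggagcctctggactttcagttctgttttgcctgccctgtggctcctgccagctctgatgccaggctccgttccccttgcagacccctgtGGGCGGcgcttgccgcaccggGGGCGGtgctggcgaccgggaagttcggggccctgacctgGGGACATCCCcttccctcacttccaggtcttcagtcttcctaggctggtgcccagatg

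Counted from the annotated start as base 1, with no base 0, the NF-kB match of Tlr3 lay at -211 to -202, and Tlr2 held overlapping matches at -173 to -164 and -172 to -163 and another at -8 to 2. Of the 32851 promoters of this length in the table, 4.51% held the NF-kB consensus on either strand. The promoters of the other 5 genes held no such match. The Sp1 box GGGCGG, found in 35.7% of all promoters, lay in those of Tlr2, Tlr3, Tlr5, Myd88 and Ticam1. The letters GAAANNGAAA of interferon regulatory factor elements, in 3.44% of all promoters, were found for Myd88 and, as overlapping matches on the opposite strand, for Tlr6. The STAT site TTCNNNGAA, in 8.30% of all, was found for Myd88, where it overlaps the interferon regulatory factor match, and for Tlr1 and Tlr6. Tlr1 held it in only 1 of its promoters, and Tlr6 held it in the promoter without the interferon regulatory factor match. The AP-1 site TGANTCA (7.81% of all) and the p53 half-site consensus (8.36% of all) had no match in the windows of these 7 genes. A match is a description of these letters and not a binding site.

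The arrays were evenly scaled, with medians between 6.15 and 6.19 log2 units and, across genes, correlations of 0.996 to 0.998 within a group and 0.989 to 0.992 between groups. Genes are not independent replicates. Spiked-in bacterial poly-A transcripts read 0.60 ± 0.17 log2 units (SE) higher on the senescent arrays (exact two-sided permutation p = 0.1). This p is the smallest that 3 arrays against 3 allow. Hybridisation controls read 0.085 ± 0.083 higher (p = 0.4 by the same permutation test). Because the arrays were scaled to a common distribution, every change given here is measured against the bulk of genes. A background level of 5.57 log2 units, below which 95% of 44 probe sets for olfactory receptors lay, was exceeded by the means of 68.7% of genes and by 9 of the 10 genes. Among 15 stellate cell markers, Acta2, Col1a1, Col1a2, Col3a1, Timp1, Lox, Tagln and Vim were bright. Lrat and Reln, markers of vitamin A-storing stellate cells, were below background on every array. Des averaged 7.10 in senescent and 6.96 in proliferating cells. Hgf averaged 5.48 in senescent and 5.76 in proliferating cells, with 2 senescent arrays below background. Of these 15 markers, 5 fell and 1 rose (limma, adjusted p under 0.05), where 20.0% of all genes passed. Each of these changes was larger than that of any Toll-like receptor described here. Pdgfrb, the receptor of platelet-derived growth factor, fell by 1.30 on the log2 scale, Col3a1 by 0.93 and the transcription factor gene Hand2 by 0.85. Col1a1 fell by 0.56, in 1 of its 2 probe sets, and Col1a2 by 0.49, while Timp1, an inhibitor of matrix proteases, rose by 0.76. Of 18 markers of macrophages, which carry many Toll-like receptors, 11 were below background on every array. Among these were Ptprc, Adgre1, Vsig4, Itgam and the C1q chains. Another 5, which were Csf1r, Laptm5, Clec4f, Fcgr1 and Lyz2, were above background on every array. Cd68 and Cx3cr1 were above it on some arrays only. Csf1r, the receptor of macrophage colony-stimulating factor, rose by 0.35 ± 0.07 (log2, SE, adjusted p = 0.0129), in 1 of its 3 probe sets. The summed linear signal of the 18 macrophage markers was 990.5 to 1034 on senescent and 877 to 940.05 on proliferating arrays, and without Csf1r it was 687 to 754 on senescent and 647 to 714 on proliferating arrays. Markers below background on every array numbered 5 of 7 for neutrophils, 4 of 8 for lymphocytes, 7 of 9 for endothelial cells, 5 of 9 for hepatocytes and 0 of 4 for biliary cells. Among these, Krt19, a biliary keratin, averaged 11.15 in senescent and 10.57 in proliferating cells and rose by 0.58 (adjusted p = 0.0018), while the biliary keratin gene Krt7 fell by 0.69. The endothelial cadherin gene Cdh5 rose by 0.72 and Apob, which encodes a hepatocyte apolipoprotein, by 0.86, each in 1 of its 2 probe sets. The part of other cell types in the results below was not tested. In such bulk RNA, fewer cells of a type and less RNA per cell cannot be told apart.

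**Figure D1:**
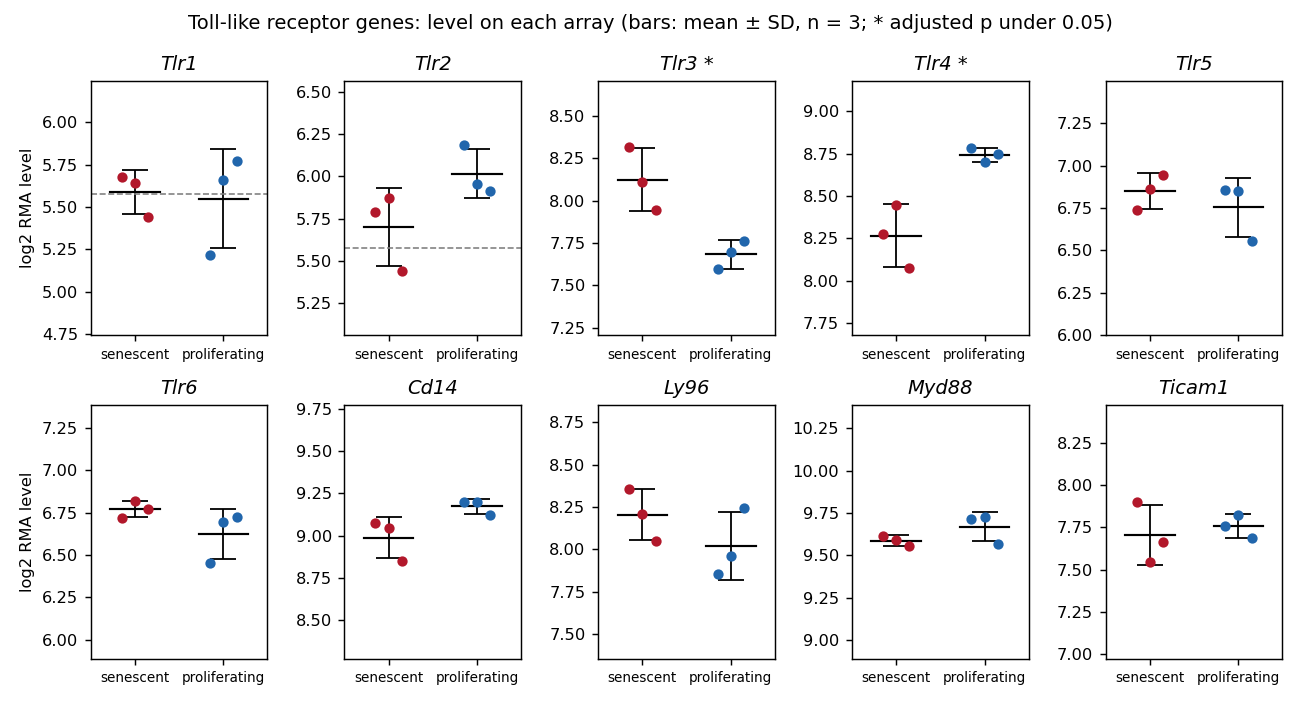
Log2 RMA level of each of the 10 genes on the 3 senescent (red) and 3 proliferating (blue) arrays, with the mean and SD as black lines, an axis of equal length in each panel, and background at 5.57 as a dashed line where it falls in range. The groups do not overlap for Tlr2, Tlr3, Tlr4 and Cd14, and asterisks mark Tlr3 and Tlr4, the genes with an adjusted p under 0.05.

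Tlr3, the endosomal receptor of double-stranded RNA, read 8.32, 8.11 and 7.94 log2 units on the senescent arrays, against 7.59, 7.70 and 7.76 on the proliferating arrays. All senescent arrays lay above all proliferating arrays. The log2 change was 0.44 ± 0.10 (SE, adjusted p = 0.0194). This came from the brighter of 2 probe sets, of a type (suffix _s_at) that can bind several transcripts. The dimmer one, of the type designed for a single gene, read 6.58, 6.73 and 6.36 on senescent and 6.08, 5.93 and 6.49 on proliferating arrays. Its groups overlapped through proliferating replicate 3, and its change of 0.39 had an adjusted p of 0.156 in a fit over all probe sets with limma and of 0.114 when it was read for the gene. The call of Tlr3 also ended without senescent replicate 1 (0.34, adjusted p = 0.0563), without senescent replicate 2 (0.45, adjusted p = 0.0600) and without proliferating replicate 1 (0.40, adjusted p = 0.0534), while the change was positive in each of the 12 alternatives, from 0.34 to 0.53. In the fit over all probe sets, neither Tlr3 probe set passed as higher without senescent replicate 1 or 2 or proliferating replicate 1 or 2.

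Tlr4, the lipopolysaccharide receptor, read 8.28, 8.45 and 8.08 on the senescent arrays, against 8.78, 8.70 and 8.75 on the proliferating arrays. All senescent arrays lay below all proliferating arrays, and the senescent values were the more spread (SD 0.18, against 0.042). The log2 change was -0.48 ± 0.10 (SE, adjusted p = 0.0111), and it stayed past the threshold with any 1 array left out (-0.57 to -0.38, adjusted p of 0.0099 to 0.0388) in the fit over genes. In the fit over all probe sets, none of the Tlr4 probe sets passed as lower without senescent replicate 1, proliferating replicate 1 or proliferating replicate 3.

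The 4 probe sets of Tlr4 did not read alike. The second brightest gave 8.13, 8.12 and 7.82 in senescent and 8.53, 8.15 and 8.35 in proliferating cells, without overlap and with a log2 change of -0.32 (limma over all probe sets, adjusted p = 0.157). The third gave 6.42, 5.97 and 5.68 in senescent and 6.26, 6.01 and 6.24 in proliferating cells, which overlapped (-0.15, adjusted p = 0.682). The last was below background on every array, with means of 3.68 in senescent and 3.58 in proliferating cells (0.10, adjusted p = 0.534). The mean of all 4 had a log2 change of -0.21 and did not pass (adjusted p = 0.213). Over the 14 probe sets of all 10 genes, 1 was higher and 1 lower in this fit, in which 12.4% of 45037 probe sets passed.

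**Figure D2:**
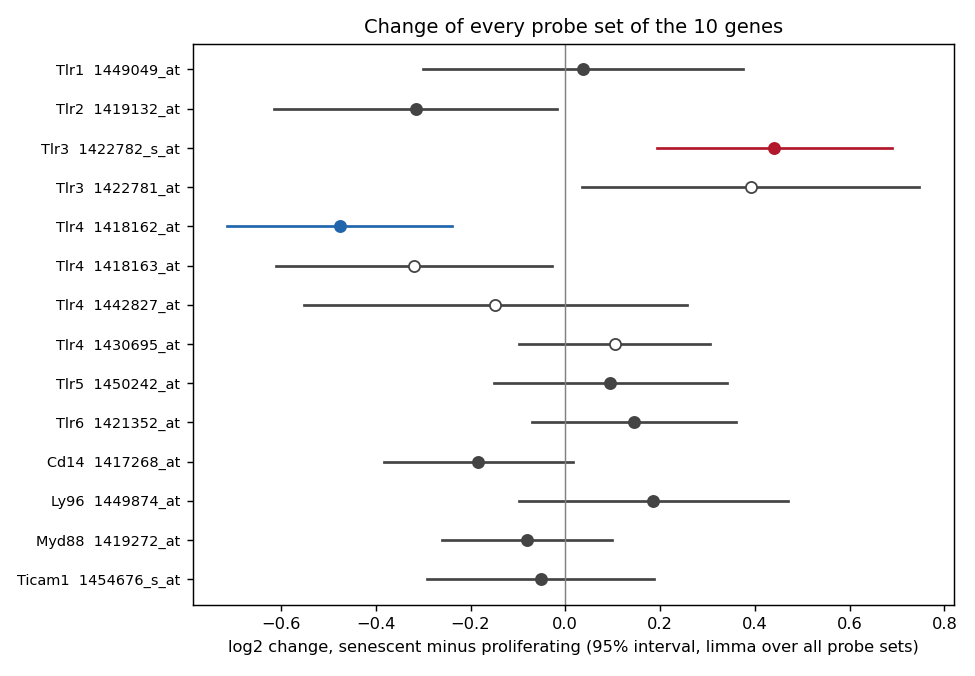
Log2 change, senescent minus proliferating, of each of the 14 probe sets, with its 95% interval from limma over all probe sets; filled points are the probe sets read for the gene and open points the others. The red interval (Tlr3) and the blue interval (Tlr4) belong to the probe sets with an adjusted p under 0.05, and 3 of the 4 Tlr4 probe sets and both Tlr3 probe sets point the same way as the brightest.

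Tlr2 encodes the receptor of bacterial lipopeptides. It read 5.79, 5.87 and 5.44 on senescent arrays, against 6.18, 5.95 and 5.91 on proliferating arrays. The groups did not overlap, but all values lay near background and senescent replicate 3 lay below it. The log2 change of -0.32 ± 0.13 (SE, 95% interval -0.60 to -0.026) had an adjusted p of 0.126, and of 0.0847 to 0.292 under the 12 alternatives.

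The partners of TLR2 showed no call. Tlr1 read 5.68, 5.64 and 5.44 in senescent and 5.22, 5.66 and 5.77 in proliferating cells, with 1 array of each group below background, so little can be said of its level. Its change was 0.037 (95% interval -0.29 to 0.37, adjusted p = 0.900), and its sign turned without senescent replicate 1 or proliferating replicate 1. Tlr6 read 6.72, 6.82 and 6.77 in senescent and 6.46, 6.70 and 6.73 in proliferating cells, with overlapping groups and a change of 0.14 (-0.059 to 0.35, adjusted p = 0.323).

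Tlr5, which encodes the flagellin receptor, read 6.74, 6.86 and 6.94 in senescent and 6.86, 6.85 and 6.55 in proliferating cells. These values overlapped, and the log2 change was 0.095 (95% interval -0.14 to 0.33, adjusted p = 0.597). It was -0.0048 without proliferating replicate 3, the lowest of the arrays.

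The co-receptors of TLR4 did not pass. Cd14, which encodes the protein that hands lipopolysaccharide to the receptor, read 9.08, 9.04 and 8.85 in senescent and 9.20, 9.20 and 9.12 in proliferating cells. All senescent arrays were below all proliferating arrays, but the change of -0.18 ± 0.08 (SE, 95% interval -0.37 to 0.0036) had an adjusted p of 0.166. Ly96, which encodes the lipopolysaccharide-binding subunit MD-2, read 8.35, 8.21 and 8.05 in senescent and 7.85, 7.96 and 8.24 in proliferating cells. Proliferating replicate 3 lay within the senescent range, and the change was 0.19 ± 0.12 (-0.088 to 0.46, adjusted p = 0.347). The brightest probe set of Tlr4 was thus lower while neither Cd14 nor Ly96 passed, and differences between these changes were not tested.

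Neither adaptor passed. Myd88, shared by most receptors of the family, read 9.62, 9.59 and 9.55 in senescent and 9.71, 9.72 and 9.57 in proliferating cells. The change of -0.081 ± 0.07 (SE, adjusted p = 0.514) had a 95% interval of -0.25 to 0.086, equal to ratios of 0.842 to 1.06 and the narrowest of the 10 genes. Ticam1 read 7.90, 7.55 and 7.66 in senescent and 7.76, 7.82 and 7.68 in proliferating cells, with a change of -0.052 ± 0.10 (-0.28 to 0.18, adjusted p = 0.784). Its sign turned to 0.017 with median centring of the arrays, which used the genes of middle mean level. It turned to 0.026 without senescent replicate 2. The only probe set of Ticam1 is also of the type that can bind several transcripts.

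The groups did not overlap for 4 of the 10 genes, which were Tlr3 with higher and Tlr2, Tlr4 and Cd14 with lower senescent values. Over all genes the share without overlap was 37.0%.

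**Figure D3:**
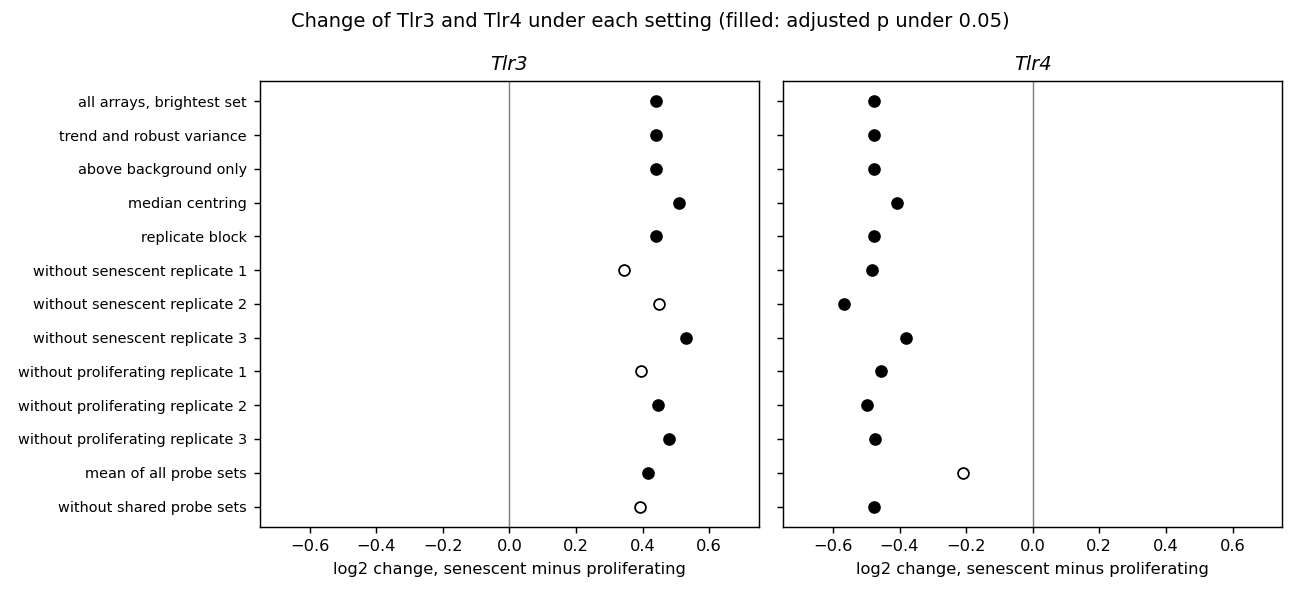
Log2 change, senescent minus proliferating, of Tlr3 and Tlr4 with all arrays and the brightest probe set (top) and under 12 alternatives; filled points have an adjusted p under 0.05. Tlr3 lies between 0.34 and 0.53 and Tlr4 between -0.57 and -0.21, and open points mark 4 alternatives for Tlr3 and 1 for Tlr4, in which the adjusted p was 0.05 or more.

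The genes closest in pattern were sought among 12499 other genes above background, by the root mean square difference of log2 values centred on the mean of the 6 arrays. The closest to Tlr3 were Cdo1, which encodes cysteine dioxygenase (difference 0.023, log2 change 0.41), Ndufaf4, a respiratory complex I assembly factor (0.040, log2 change 0.40), and Qpctl, a glutaminyl cyclase (0.050, log2 change 0.46). The closest to Tlr4 were Zfp943, a zinc finger gene (0.026, log2 change -0.46), Zdhhc17, a palmitoyltransferase (0.029, log2 change -0.47), and Stag2, a cohesin subunit (0.031, log2 change -0.50).

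Other receptors of the family varied in level, and Tlr9 and Tlr12 lay above background on every array. So did 3 of 8 lymphocyte markers (Cd3e, Cd4 and Cd8a), with group means between 6.07 and 6.72, while 4 were below it on every array. Levels in or near this range, as for Tlr5, Tlr6, Tlr9 and Tlr12, therefore do not by themselves show expression. Tlr7, Tlr8 and Tlr13, endosomal sensors of RNA, were below background on every array. Tlr9, the endosomal sensor of DNA, averaged 6.67 ± 0.14 in senescent and 6.56 ± 0.06 in proliferating cells (log2, SD, n = 3 each), and Tlr12, which recognises profilin of parasites in mice, averaged 5.98 ± 0.03 in senescent and 6.03 ± 0.05 in proliferating cells. None of these 5 genes passed (0 by limma at an unadjusted p of 0.05 as well), and their log2 changes lay between -0.081 and 0.11.

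Of 16 measured genes that fold, move or feed the receptors, 3 fell and 0 rose, with a median log2 change of -0.052. Over all genes 20.0% passed, so the share that passed here was near the background. Lbp, which encodes the lipopolysaccharide-binding protein that loads CD14, read 8.76, 8.64 and 8.67 in senescent cells, against 9.58, 9.32 and 9.19 in proliferating cells. It was thus 1.60-fold lower (log2 change -0.67 ± 0.10, SE, adjusted p = 0.0030), in 1 of its 2 probe sets. Lgmn, an endosomal protease that can cleave receptors of this family, was 1.40-fold lower (-0.49 ± 0.07), without overlap of the groups. Cnpy3, a chaperone of Toll-like receptors, had -0.30 (adjusted p = 0.0379), a call that ended with the median centring (-0.23) and without senescent replicate 1, 2 or 3 or proliferating replicate 2 or 3 (-0.32 to -0.24, adjusted p of 0.0789 to 0.136). The only probe set of Cnpy3 did not pass in the fit over all probe sets. The chaperone Hsp90b1 and the transporter Unc93b1 had changes of -0.058 and -0.14 and did not pass.

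**Figure D4:**
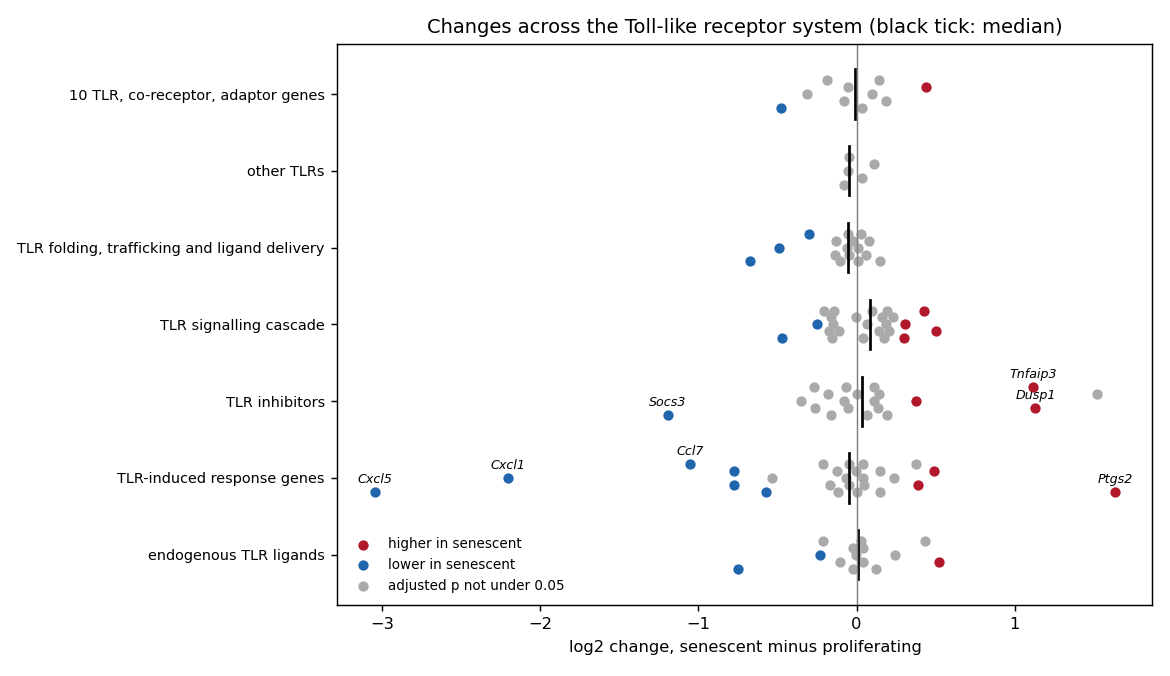
Log2 change, senescent minus proliferating, of each measured gene in 7 groups of the Toll-like receptor system; red and blue points have an adjusted p under 0.05, grey points do not, and a black tick marks the median of each group. Genes past 1 log2 unit with an adjusted p under 0.05 are named, and the 10 genes in the top row lie between -0.48 and 0.44 while response genes span -3.05 to 1.64.

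Of 24 measured genes of the signalling cascade, 4 rose and 2 fell, with a median log2 change of 0.084. Over all genes 9.49% rose and 10.5% fell, 20.0% in all, so the share that passed here was near that of all genes. In the fit of genes above background, 5 of 23 cascade genes rose and 3 fell, where 4020 of 12500 genes passed. Irak2, a kinase of the MyD88 complex that sustains signalling, read 9.53, 9.63 and 9.40 in senescent cells, against 8.86, 9.06 and 9.12 in proliferating cells. It rose by 0.50 ± 0.10 (log2, SE, adjusted p = 0.0079). Irak3, a related protein that restrains the same complex, read 6.89, 6.82 and 6.69 in senescent and 7.28, 7.28 and 7.25 in proliferating cells. It fell by 0.47 (adjusted p = 0.0034), in 1 of its 2 probe sets, and the groups overlapped for neither gene. Ikbkg, which encodes the NEMO subunit of the IkB kinase complex, rose by 0.43 in its brightest probe set (adjusted p = 0.0067) and passed in all 6 of its probe sets.

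The other calls in the cascade were less firm. Ikbke, a kinase on the TRIF route, had 0.31 (adjusted p = 0.0199), which no longer passed without senescent replicate 3 (0.26, adjusted p = 0.0557) or proliferating replicate 3 (0.30, adjusted p = 0.0738). Mapk9, the JNK2 kinase, had 0.30 in 1 of its 3 probe sets and no longer passed without senescent replicate 1 or 2 or proliferating replicate 2 or 3 (0.27 to 0.30, adjusted p of 0.0683 to 0.0807) or in the mean of its probe sets (0.13). Peli1, a ubiquitin ligase of the TRIF route, had -0.25 (adjusted p = 0.0496), a call that ended with the median centring (-0.18) and with any array left out other than senescent replicate 2 (-0.26 to -0.20, adjusted p of 0.109 to 0.124), as it did in the mean of its probe sets (-0.23). None of the Peli1 probe sets passed in the fit over all probe sets. Without proliferating replicate 3 the cascade had 2 genes higher, and without each array other than senescent replicate 2 it had 1 lower. Tirap, the adaptor that brings MyD88 to TLR2 and TLR4, had 0.23 (adjusted p = 0.164, with 1 of its 2 probe sets past the threshold over all probe sets), Traf6 0.14, Irf3 0.20 and Rela 0.19, none of which passed.

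Of 20 measured genes listed as inhibitors of the pathway, 3 rose and 1 fell, with a median of 0.035. This share was near the 20.0% of all genes that passed. The list counted Bambi, the TGF-beta pseudoreceptor, but not Irak3, which was counted in the cascade. Tnfaip3, the ubiquitin-editing enzyme A20, read 10.73, 10.85 and 10.64 in senescent cells, against 9.68, 9.55 and 9.64 in proliferating cells, and was 2.17-fold higher. Cyld, a deubiquitinase of TRAF6, rose by 0.37 ± 0.08 (log2, SE, adjusted p = 0.0108), with 2 of its 4 probe sets past the threshold. Socs3, a feedback inhibitor of cytokine signalling, read 10.13, 10.24 and 10.09 in senescent and 11.86, 11.10 and 11.07 in proliferating cells, and was 2.28-fold lower (-1.19 ± 0.19, adjusted p = 0.0037). Proliferating replicate 1 lay above the other proliferating arrays, and without it the change was -0.93 (adjusted p = 3.97e-04).

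Proliferating replicate 1 also lay apart from the other proliferating arrays for Dusp1, Atf3, Nfkbia and Nfkbiz, among others, but not for Tnfaip3. Nfkbiz read 11.65, 10.75 and 10.55 on the proliferating arrays and did not pass (-0.27, limma, adjusted p = 0.540). Of the response genes described below, Il6 and Ccl5 were also highest on that array, with 7.41, 6.69 and 6.68 for Ccl5. Dusp1, a MAP kinase phosphatase, read 12.84, 12.75 and 12.64 in senescent and 12.54, 11.27 and 11.02 in proliferating cells, and its change of 1.13 (adjusted p = 0.0488) was 1.60 without that array (adjusted p = 1.59e-04). The call ended without senescent replicate 1, 2 or 3 or proliferating replicate 2 or 3 (0.83 to 1.18, adjusted p of 0.111 to 0.137). It also ended with a trended robust variance, at an adjusted p of 0.174. The only probe set of Dusp1 did not pass in the fit over all probe sets. Atf3, a transcription factor that represses response genes, read 9.36, 9.05 and 9.06 in senescent and 9.20, 6.81 and 6.90 in proliferating cells. It did not pass with all arrays (1.52, adjusted p = 0.0955) and passed without proliferating replicate 1 (2.30, adjusted p = 4.48e-05). That setting gave 5 inhibitors higher, adding Atf3 and Nfkbia (0.29, adjusted p = 0.049995) to the 3 above. Bambi, the pseudoreceptor named above, read 7.77, 7.93 and 7.70 in senescent and 8.49, 7.95 and 8.005 in proliferating cells, with a change of -0.35 that did not pass (adjusted p = 0.139).

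Of 26 measured genes that Toll-like receptor signalling is known to induce, 6 fell and 3 rose, with a median of -0.048. Of all genes, 10.5% fell and 9.49% rose, and whether the shares here differ from these was not tested. The chemokine gene Cxcl5 had the largest fall of the list (-3.05), with 1 senescent array below background, followed by Cxcl1 (-2.21), Ccl7 (-1.05 ± 0.10, adjusted p = 3.20e-04) and Ccl2 (-0.77 ± 0.13, adjusted p = 0.0045). Ccl7, a monocyte attractant, read 11.16, 11.19 and 10.87 in senescent cells, against 12.22, 12.11 and 12.04 in proliferating cells. Irf1, an interferon regulatory factor, fell by 0.77, and Ptgs2, cyclooxygenase 2, rose by 1.64.

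The remaining calls of that list were named after their values were seen. The chemokine gene Cxcl10 fell by 0.57, which no longer passed without senescent replicate 3 (-0.50, adjusted p = 0.0510). The growth factor gene Csf3 rose by 0.49, and the interferon-induced gene Ifit3 rose by 0.39, which no longer passed without senescent replicate 1 (0.35, adjusted p = 0.0502). Il6 had a change of -0.54 (adjusted p = 0.211), with 9.04, 9.08 and 8.45 in senescent and 10.00, 9.08 and 9.10 in proliferating cells. Tnf, Il1b and Ifnb1, which encode classical products of the pathway in macrophages, had log2 changes of 0.04, -0.12 and -0.06 at levels near or below background and did not pass.

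Of 14 measured genes listed as encoding endogenous ligands of Toll-like receptors, 1 rose and 2 fell, with a median of 0.011. Whether each product engages a receptor was not tested. The share that passed was near the 20.0% of all genes. Tnc, tenascin C, read 11.62, 11.58 and 11.52 in senescent cells, against 11.15, 11.03 and 10.97 in proliferating cells, a rise of 0.52 ± 0.07 (log2, SE, adjusted p = 0.0021). The proteoglycan gene Dcn, decorin, was 1.68-fold lower, while Bgn, biglycan, had a change of -0.10 and did not pass. Lgals3bp, a galectin-binding glycoprotein, had -0.23 (adjusted p = 0.0443), a call that ended with the median centring (-0.16) and without senescent replicate 1, 2 or 3 or proliferating replicate 2 or 3 (-0.24 to -0.20, adjusted p of 0.0891 to 0.157). The only probe set of Lgals3bp did not pass in the fit over all probe sets. S100a8 and S100a9, which encode alarmins of neutrophils, were below background on every array.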

How the data were processed

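The authors' deposited data hold 1 log2 value for each probe set and array, computed with RMA per the submitters' processing notes. RMA brings the arrays to a common distribution (sorted values differed by at most 0.123 between arrays), so a shift shared by most genes is removed. The labels used here give no software version, filter or batch. Of 45101 probe sets, 64 controls were set aside and 34945 had 1 gene symbol, of which 34741 were matched by Entrez number to RefSeq. The brightest probe set, by its mean over the 6 arrays, stood for each gene. The comparison, senescent minus proliferating, used limma 3.58.1 (lmFit, eBayes) under R 4.3.3, with Benjamini-Hochberg adjustment over 18193 genes and, separately, over 45037 probe sets. It had 4 residual and 4.22 prior degrees of freedom, and the small number of arrays limits precision. The scripts were tested on simulated data. Alternatives were other probe set rules, a trended robust variance, a background filter, median centring, the replicate number as a block, and each array left out. Median centring brought to a common value the median, on each array, of the genes of middle mean level, not of all genes. The genes, lists and tests were chosen with earlier results of these data known. Named were all members, other Toll-like receptors and, per list, up to 6 called genes by size of change; other names were chosen after values were seen. Alternatives for the lists were added after seeing the data. Listed genes that no probe set named alone are not analysed here.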

Additional observations from a re-analysis of the deposited data

How the results depend on the processing

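Without any 1 array, the members called higher numbered 0 to 1 by gene and 0 to 1 by probe set, and those called lower 0 to 1 by probe set. None was higher (0) when probe sets that can bind several transcripts were left out, and none lower (0) in the mean of all probe sets. With the replicate number as a block, members called were 1 higher and 1 lower by gene and 0 higher by probe set, and 2935 genes passed in all, against 3645. Arrays of the same number did not deviate together (correlations of 0.094, -0.068 and -0.15), so the numbers were not taken as pairs. Under the block Ikbke, Mapk9, Peli1, Cnpy3 and Lgals3bp no longer passed and Atf3 did. With median centring 63.2% of 3634 calls were higher, against 47.4%, the median change of all genes was 0.067, against -0.0018, and Ticam1 (0.017), Tlr7 (0.024) and Tlr12 (0.015) turned sign. So did Tlr7 in the mean of its probe sets (0.023). With 1 array left out, sign turned for Tlr1 (-0.13 to 0.15), Tlr5 (-0.0048 to 0.15), Ticam1 (-0.15 to 0.026), Tlr7 (-0.18 to 0.082) and Tlr8 (-0.099 to 0.26), none of them called. Tlr3 and Tlr4 kept their direction in all 12 alternatives. The counts of genes called stayed within 1.5 times of 3645, from 2434 to 4229. The number tested was not the same throughout. With the background filter 4020 of 12500 genes passed, a larger share than the 20.0% of all 18193 genes. Signals near background, as for Tlr1 and Tlr2, limit what could be detected.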
